A study of Microcebus murinus with 8 samples.

Results

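The microRNAs named for the miR-17 to miR-92 cluster were followed in the blood plasma of grey mouse lemurs (Microcebus murinus), small primates fed a diet based on dairy fat or on vegetable fat. Members were the rows named mmr-miR-17, mmr-miR-18, mmr-miR-19b, mmr-miR-20, mmr-miR-92a and mmr-miR-92b, written below without the species prefix. These 6 names were found among the 108 microRNAs listed in every sample. MiR-92a and miR-92b held identical values in all 8 samples and count here as 1 member, called miR-92a, which leaves 5 distinct members. The labels give 4 samples on the dairy fat diet (samples 1 to 4) and 4 on the vegetable fat diet (samples 5 to 8), all from plasma of animals labelled WT. No untreated group was analysed, and the labels give no age. The labels do not tie samples to separate animals, so p-values reflect only sample-to-sample spread, which may be technical.

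In mammals the miR-17 to miR-92 cluster is transcribed as a single primary RNA and cut into several microRNAs, and related copies of some members lie in a paralogous cluster on the X chromosome. The cluster is switched on by MYC and is known for promoting cell proliferation and survival in human and mouse. MiR-17 and miR-20 carry the same seed, the stretch that pairs with target RNAs, and miR-18 carries a closely related one. MiR-19b and miR-92a have seeds of their own. MiR-92b comes from a separate locus outside the cluster, so its shared value does not tell which locus the miR-92a reads came from. The names in these tables carry no arm of the hairpin, and miR-18 and miR-20 carry no letter, so copies from the paralogous clusters cannot be told apart.

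Levels are deposited as reads per 1000000 (RPM), summing to 1000000 over the 108 listed microRNAs in each sample, so a rise of one microRNA lowers the others. The values were whole multiples of one step, the value of 1 read, which gave implied totals from 1408536 to 3437717 reads on dairy fat and from 1061434 to 4004131 on vegetable fat. These totals cover the listed microRNAs only, with each identical row counted, and the full sequencing depth is not known. Below, read total means this implied total, and the deepest and the shallowest library are those where it was highest and lowest. The 5 members together took 1.73% ± 0.45 of the reads in the dairy group and 2.05% ± 0.35 in the vegetable group (SD, n = 4 each). The lowest sum was 1.27%, in dairy sample 2, and the highest 2.53%, in vegetable sample 7. The ranges overlapped between the diets. Of a fixed list of 13 microRNAs from the cluster and its paralogous clusters, 3 were listed by the exact name, miR-17, miR-19b and miR-92a, all of them members. In bulk plasma, fewer cells releasing a microRNA and less released per cell cannot be told apart.

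MiR-92a, which is abundant in red blood cells and acts on vessel growth in mice, was the member with the highest mean level. It ranked 13th of the 105 distinct microRNAs by mean level. It stood at 9989, 5535, 10942 and 7454 RPM in dairy samples 1 to 4. In vegetable samples 5 to 8 it stood at 9936, 9248, 7888 and 9153 RPM. The dairy samples enclosed all 4 vegetable samples, with dairy sample 2 lowest and dairy sample 3 highest.

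MiR-20, which with miR-17 restrains E2F factors of the cell cycle in human cells, ranked 16th. It stood at 3779, 3607, 7193 and 4545 RPM in dairy samples 1 to 4. The vegetable samples 5 to 8 held 5326, 3648, 10772 and 5168 RPM. Vegetable sample 7 and dairy sample 3 were the highest of their diets, and the groups overlapped. MiR-17, the member that gives the cluster its name, ranked 22nd. It stood at 2899, 2155, 3265 and 2267 RPM on dairy fat, in the order of samples 1 to 4, and at 2406, 2682, 3739 and 4344 RPM in vegetable samples 5 to 8. Here vegetable sample 8 was highest, with sample 7 next, and both lay above every dairy sample.

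MiR-18, whose targets in mouse tumour cells include anti-angiogenic genes, ranked 37th. It stood at 711, 765, 1199 and 728 RPM in dairy samples 1 to 4. Vegetable samples 5 to 8 held 822, 803, 1568 and 1092 RPM. Dairy sample 3 stood apart from the other dairy samples, and all 4 vegetable samples lay above the dairy median. MiR-19b had the lowest mean of the 5 and ranked 47th. Its dairy values were 313, 590, 735 and 464 RPM in samples 1 to 4, and its vegetable values were 572, 548, 1300 and 957 RPM in samples 5 to 8. Its highest sample was 4.15 times its lowest, the widest spread of the 5 members, against 1.98 times for miR-92a.

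**Figure D1:**
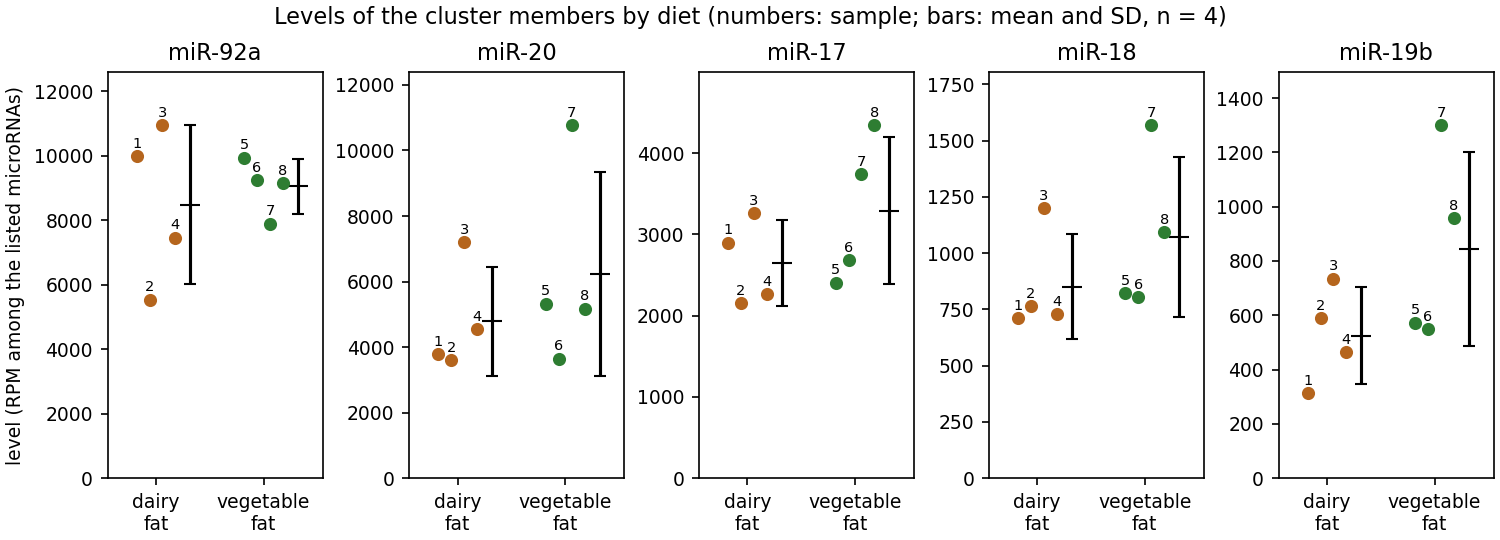
Level of each distinct member in RPM among the 108 listed microRNAs (vertical axis, each panel with its own scale from 0) by diet. Points are single samples with their number, and bars give the mean and SD (n = 4). The diets overlap in all 5 panels, and sample 7 is highest for miR-20, miR-18 and miR-19b, reaching 10772 RPM for miR-20.

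The question set by the design was whether the source of dietary fat moved these levels. The diets were compared by limma on log2(RPM + 1) across the 104 microRNAs that reached 1 RPM in 4 or more samples, and all 5 members passed that filter. With a Benjamini-Hochberg adjusted p under 0.05 as threshold, 0 of the 5 members were called, as were 0 of all 104 (0%). At an unadjusted p under 0.05 limma also gave 0 members and 0 microRNAs. No other tool was run. None of the 104 separated the 4 vegetable samples from the 4 dairy samples (0%), the members included.

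All 5 estimates lay above 0, where 64 of the 104 (61.5%) did. The median of the members was 0.31 and that of all 104 was 0.07 on the log2 scale, vegetable fat over dairy fat. MiR-19b had the largest member estimate, 0.66 ± 0.38 (SE), with a 95% interval from −0.19 to 1.51 and a limma adjusted p of 0.999. For miR-20 it was 0.32 (−0.47 to 1.11), for miR-18 0.31 (−0.38 to 1.01) and for miR-17 0.30 (−0.31 to 0.90). MiR-92a had the smallest, 0.14, with an interval from −0.39 to 0.67. These 4 also had an adjusted p of 0.999. Every interval spanned 0, and only those of miR-17 and miR-92a stayed within a 2-fold change in either direction. All 4 vegetable samples lay above the dairy median for miR-18 and miR-19b, a pattern found in 16 of the 104 microRNAs (15.4%).

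Vegetable samples 7 and 8, the deepest and the shallowest library, carried much of this for 4 of the 5 members. Without both, the estimates of miR-17, miR-18 and miR-20 were −0.04, −0.03 and −0.06, and that of miR-19b was 0.16, while that of miR-92a was 0.23. Without sample 7 alone the estimates of miR-20, miR-18 and miR-19b were 0.02, 0.11 and 0.42. Without sample 8 alone that of miR-17 was 0.15. Without dairy sample 2, where miR-92a was lowest, the miR-92a estimate was −0.05. The scaling also mattered: with upper quartile factors the estimates were 0.03 for miR-17, 0.05 for miR-18, 0.06 for miR-20, 0.39 for miR-19b and −0.12 for miR-92a, beside a median of −0.19 over all 104.

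**Figure D2:**
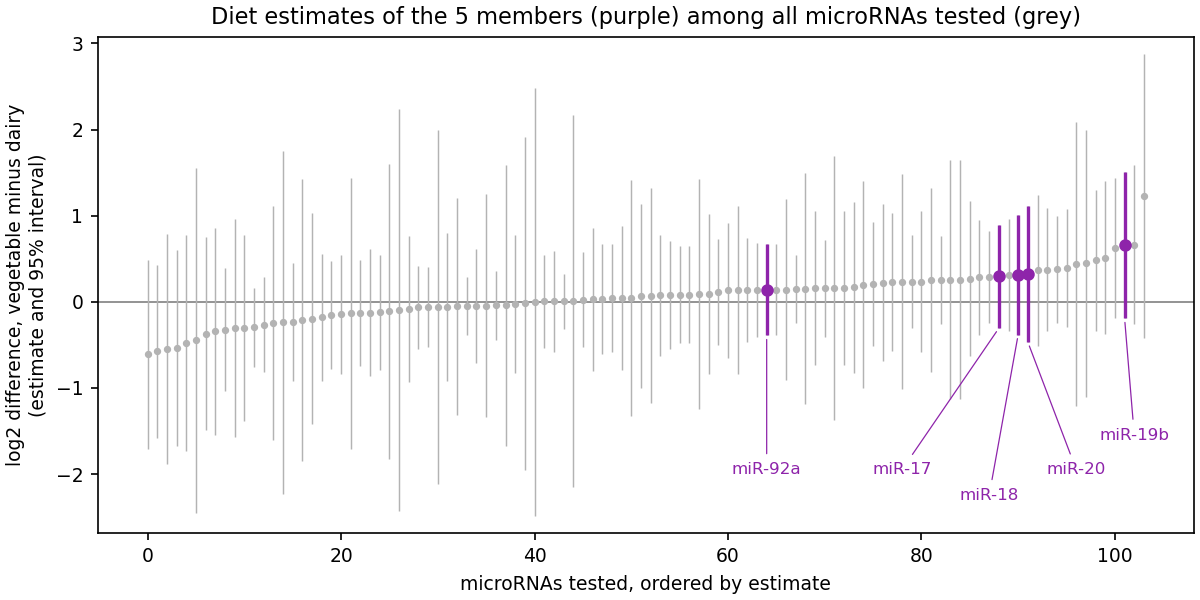
Estimated log2 difference, vegetable fat minus dairy fat (vertical axis, with limma's 95% interval), for the 104 microRNAs tested, ordered by estimate (horizontal axis). The 5 members are in purple and the others, with miR-92b, in grey. The intervals of all members cross 0, and the member estimates run from 0.14 to 0.66.

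Ratios between members within a sample do not change with the scaling of the library. The order of the levels was miR-92a, miR-20, miR-17, miR-18 and miR-19b in 7 of 8 samples. In vegetable sample 7 miR-20 stood above miR-92a, with a ratio of miR-92a to miR-20 of 0.732. Over all samples the log2 ratio of miR-92a to miR-20 was 0.74 ± 0.57 (SD, n = 8), so these neighbours differed by little more than their spread. MiR-20 exceeded miR-17 in 8 of 8 samples by 0.83 ± 0.45 on the log2 scale. MiR-17 exceeded miR-18 in 8 of 8 by 1.64 ± 0.27, the widest step between neighbours. MiR-18 exceeded miR-19b in 8 of 8 by 0.56 ± 0.31. These are ratios of reads, and microRNAs of like length need no correction for length. No correction for other differences between sequences was made here, so the order of reads need not be the order of molecules.

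The proportions of the members were not fixed from sample to sample. Of the reads of the 5 members, miR-92a took between 31.2% and 56.5%, and miR-20 between 21.4% and 42.6%. The steadiest of the 10 ratios was that of miR-20 to miR-18, whose highest value was 1.51 times its lowest. That of miR-92a to miR-19b varied most, from 6.07 in vegetable sample 7 to 31.9 in dairy sample 1, or 5.26 times. Counting error was small beside this. The largest counting SE of any log2 ratio was 0.082, while the SDs over samples ran from 0.23 to 0.73. Such errors cover the counting of reads only, since it is not known whether reads or unique molecules were counted.

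The ratios did not pass the test between the diets. By two-sided exact permutation over the 70 assignments of 8 samples, 0 of the 10 ratios passed after adjustment, and before adjustment 0 had p under 0.05. The smallest p this design allows is 0.0286. The smallest found was 0.114, for miR-18 over miR-19b (exact permutation, adjusted p = 0.971 over the 10). Its log2 ratio was 0.73 ± 0.34 in the dairy group and 0.38 ± 0.18 in the vegetable group (SD, n = 4 each). For miR-20 over miR-17, the pair with a shared seed, the averages were 0.82 ± 0.33 and 0.84 ± 0.60 (exact permutation p = 0.886, adjusted p = 0.971).

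The ratio of miR-20 to miR-17 rose with the number of implied reads in the library. It was 1.19 in vegetable sample 8, 1.30 in dairy sample 1 and 1.36 in vegetable sample 6, the 3 libraries with fewest reads. In dairy samples 2, 3 and 4 it was 1.67, 2.20 and 2.005, and in vegetable samples 5 and 7 it was 2.21 and 2.88. Those 5 libraries held 3103305 to 4004131 implied reads, and the 3 others 1061434 to 1855670. Over the 8 samples the log2 ratio had a Pearson r of 0.92 with log2 read total (exact permutation p = 4.96e-05, adjusted p = 0.000496 over the 10 ratios). Spearman's rho was 0.98 (exact permutation p = 0.000397, adjusted p = 0.00397). Without the 2 libraries farthest from the median read total, vegetable sample 8 and dairy sample 1, r was 0.91. The slope was 0.59 on the log2 scale per doubling of reads, and it was 0.50 within dairy fat and 0.66 within vegetable fat, where 4 samples each are too few for a correlation.

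The ratio of miR-17 to miR-18 fell with read total. It was 3.98 in vegetable sample 8 and 4.07 in dairy sample 1, and 2.38 in vegetable sample 7. Pearson's r was −0.94 (exact permutation p = 0.000645, adjusted p = 0.00322) and Spearman's rho −0.90 (exact permutation p = 0.00456, adjusted p = 0.0228). Without the same 2 libraries r was −0.83. With the deepest and the shallowest library left out, r was −0.94 over 6 samples and the adjusted p was 0.0556 (exact permutation), while miR-20 over miR-17 still passed at an r of 0.92 (adjusted p = 0.0278). For miR-20 over miR-18 r was 0.70 (exact permutation p = 0.0638, adjusted p = 0.200), and this ratio did not pass. In all, 2 of the 10 member ratios had an unadjusted exact p under 0.05, against 31.2% of the 5050 ratios between all distinct microRNAs tested. That count is thus no higher than among all microRNAs. A correlation as far from 0 as that of miR-20 over miR-17 was found for 0.455% of the 5050 ratios. For miR-17 over miR-18, which shares miR-17, the share was 0.198%. Both were picked from the 10 as the strongest after the data were seen, so these shares are no test.

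**Figure D3:**
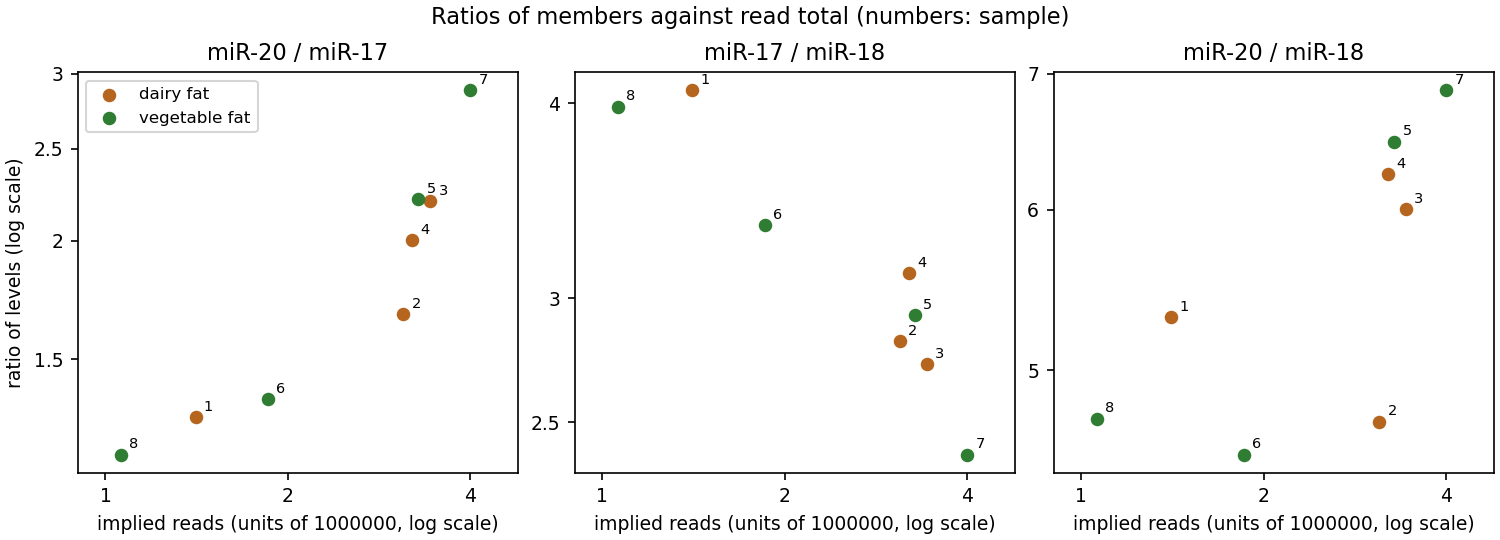
Ratio of the levels of 2 members (vertical axis, log scale) against the implied reads of the library in units of 1000000 (horizontal axis, log scale), with 1 point per sample, numbered and coloured by diet. The ratio of miR-20 to miR-17 runs from 1.19 in sample 8 to 2.88 in sample 7, while that of miR-17 to miR-18 runs from 4.07 in sample 1 down to 2.38 in sample 7.

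Levels of single members were less closely tied to read total. With diet in the model, limma gave slopes per doubling of reads of 0.44 for miR-20, 0.31 for miR-19b and 0.20 for miR-18. Those of miR-92a and miR-17 were −0.12 and −0.17. None of the 5 slopes passed (limma adjusted p from 0.138 to 0.633), where 36 of all 104 did (34.6%). The median slope of all 104 was −0.30. For miR-20 the slope was 0.63 with upper quartile scaling (limma adjusted p = 0.0369) and 0.80 with a trimmed mean of log ratios (limma adjusted p = 0.0240), so its call depended on the scaling. It was also called without vegetable sample 5, at 0.52 (limma adjusted p = 0.0472). Over all 104 microRNAs, 28 slopes were called with upper quartile scaling, 25 with the trimmed mean and 42 without vegetable sample 5.

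The members varied together to unequal degrees. The pairs of miR-18 with miR-20 and with miR-19b passed the test by Pearson's r, and no pair with miR-92a did. Over the 8 samples, log2 levels of miR-20 and miR-18 had a Pearson r of 0.92 (exact permutation p = 0.00241, adjusted p = 0.0120 over the 10 pairs). Their Spearman rho was 0.79 (exact permutation p = 0.0279, adjusted p = 0.140). Without vegetable sample 7 and dairy sample 3, the 2 samples farthest from the median of miR-20, r fell to 0.58, so this relation rests on those samples. It also missed the threshold without either one alone (exact permutation, adjusted p = 0.0962 without sample 7 and 0.0873 without sample 3). For miR-18 and miR-19b r was 0.91 (exact permutation p = 0.000893, adjusted p = 0.00893) and rho 0.90 (exact permutation p = 0.00456, adjusted p = 0.0456). This r was 0.90 without the same 2 samples and 0.82 without vegetable sample 7 alone, where it missed the threshold (exact permutation, adjusted p = 0.0962).

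Both pairs kept their r when each diet was centred on its own mean, at 0.92 and 0.90. Of the 10 pairs, 4 had an unadjusted exact p under 0.05, all with r above 0, and 18.8% of the 5050 pairs of distinct microRNAs did. The median r was 0.62 over the 10 member pairs and 0.19 over all 5050 pairs. Values as high as that of miR-20 and miR-18 were found in 2.44% of all pairs. That pair had the highest r of the 10, so this share is no test. All of these values come from levels that are shares of a fixed total. With a straight-line trend on log2 read total taken out, r was 0.94 for miR-20 and miR-18 and 0.90 for miR-18 and miR-19b. The part of read total in these values was not tested.

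MiR-17 and miR-20, which share a seed, had an r of 0.58 (exact permutation p = 0.128, adjusted p = 0.213) and a rho of 0.62 (exact permutation p = 0.115, adjusted p = 0.252). With the straight-line trend on log2 read total taken out of both, their r was 0.98. That of miR-17 and miR-18 went from 0.77 to 0.99 in the same way, and that of miR-17 and miR-19b from 0.65 to 0.84. The 6 pairs among miR-17, miR-18, miR-19b and miR-20 had r from 0.78 to 0.99 with the trend removed. This adjustment was chosen after the data were seen, and these values are given as a description. Read total had already been seen to track the ratios of miR-20 to miR-17 and of miR-17 to miR-18. Taking out a trend that a ratio follows brings the r of its pair up, so the rises in those pairs are no separate result. No share over all pairs is given for these values.

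The 4 pairs with miR-92a had a median r of 0.20, against 0.77 for the other 6 pairs. With trimmed mean scaling r with miR-92a was 0.67 for miR-20, 0.58 for miR-18, 0.49 for miR-17 and 0.41 for miR-19b, and with upper quartile scaling it ran from −0.25 to 0.25, so these values depend on the scaling. For miR-92a and miR-17 r was 0.44 (exact permutation p = 0.284, adjusted p = 0.406), and for miR-92a and miR-19b it was −0.08 (exact permutation p = 0.843, adjusted p = 0.843). With the read total trend removed, the 4 pairs had r from −0.01 to 0.43. Without dairy samples 2 and 4, the 2 farthest from the miR-92a median, r was below 0 in all 4, from −0.60 to −0.41. A share of miR-92b in the miR-92a value cannot be separated.

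**Figure D4:**
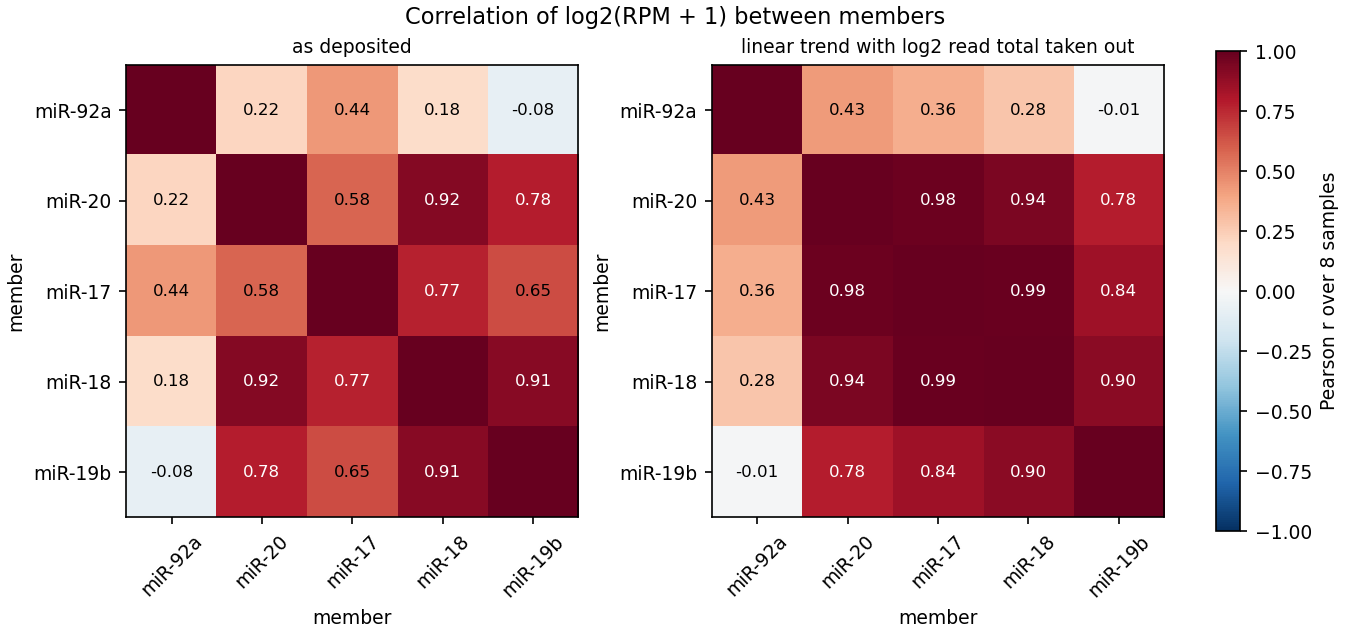
Pearson r of log2(RPM + 1) over 8 samples between each pair of members (both axes), as deposited (left) and with the linear trend on log2 read total taken out (right). Colour gives r from −1 to 1. The value of miR-20 and miR-17 goes from 0.58 to 0.98, while the row of miR-92a stays between −0.08 and 0.44 in both panels.

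For each member, the microRNAs with the most similar pattern were sought among the 96 other distinct rows by Pearson r over the 8 samples. They were picked for a high r and are described with no test. MiR-18 was nearest to miR-30e (0.98) and miR-374a (0.95), and miR-19b to miR-148b (0.98) and miR-374a (0.92). MiR-20 was nearest to miR-6313 (0.97) and miR-374a (0.93). For miR-17 the nearest were miR-30c (0.92) and miR-29c (0.84), a repressor of collagen genes in mice. MiR-92a was nearest to miR-361 (0.91) and miR-484 (0.91), and like miR-17 it shared neither with another member. With 1 sample left out, the lowest r of these pairs ran from 0.71 for miR-92a and miR-484 to 0.98 for miR-18 and miR-30e. For all 5 members at least 2 microRNAs from outside the cluster had a higher r than any other member.

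Plasma can hold microRNAs of blood cells, and 4 fixed names that were listed were set beside the members. They were miR-486 and miR-15a of red cells, miR-126 of platelets and vessels, and miR-23b, used in a haemolysis ratio. The red cell list had 2 of 5 members listed, miR-486 and miR-15a, whose sum ran from 55154 to 88348 RPM on dairy fat and from 58705 to 107068 on vegetable fat. The platelet list had 4 of 5 listed, with sums from 163218 to 209757 and from 150399 to 212053 RPM, and the leukocyte list 2 of 5, with 2608 to 6497 and 1138 to 4026 RPM. MiR-191 alone made up most of each platelet sum, at 147356 to 207606 RPM over the 8 samples, while miR-126 ran from 2127 to 11325 RPM. MiR-486 likewise made up most of each red cell sum. These 2 sums thus mainly follow 1 microRNA each and do not measure the content of a cell type. MiR-451a, miR-16, miR-223 and miR-122 are not analysed here. MiR-486 over miR-23b, a stand-in for haemolysis, had a log2 ratio of 4.68 ± 0.79 in the dairy group and 4.77 ± 0.50 in the vegetable group (SD, n = 4 each). MiR-92a had an r of 0.74 with miR-486, an abundant red cell microRNA (exact permutation p = 0.0366, adjusted p = 0.183 over 20 relations). Its rho was 0.60 (exact permutation p = 0.132, adjusted p = 0.489), and r was 0.20 without the 2 samples farthest from the miR-486 median.

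The other 4 members had r with miR-486 between −0.35 and 0.08. MiR-20 had an r of 0.90 with miR-15a, which represses survival genes of the BCL family in human cells (exact permutation p = 0.00203, adjusted p = 0.0407 over 20). Its rho was 0.71 (exact permutation p = 0.0576, adjusted p = 0.463), and r was 0.62 without the 2 samples farthest from the miR-15a median. This was the 1 relation of the 20 past the threshold by Pearson's r, and by Spearman's rho there was none. Before adjustment the exact p of r was under 0.05 for miR-20, miR-18 and miR-19b with miR-15a and for miR-92a with miR-486. Among all 5050 pairs of distinct microRNAs, 18.8% had such a p with r above 0, so relations of this kind are common in these data. No relation passed without any one of dairy samples 1, 3 or 4 or vegetable samples 5, 6 or 7, and 6 passed without vegetable sample 8. Those 6 are counted whatever the sign of r, and no share over all pairs is given for that setting. MiR-18 and miR-19b had r of 0.83 and 0.78 with miR-15a (exact permutation, adjusted p = 0.0915 and 0.144), while that of miR-92a was −0.002 (exact permutation, adjusted p = 0.996). With miR-126, r ran from −0.69 for miR-20 to −0.05 for miR-17. With miR-23b it ran from −0.60 for miR-20 to 0.24 for miR-92a. None of these passed (exact permutation, adjusted p of 0.210 or more). MiR-15a itself had an r of 0.72 with log2 read total, miR-486 −0.54, miR-126 −0.74 and miR-23b −0.93. The part of blood cell release or of read total in the members' patterns was not tested.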

How the data were processed

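Per the labels' protocols, RNA came from plasma by the miRNeasy Micro kit and went into QIAseq miRNA libraries. The tool cutadapt 3.4 was used, per the submitters' processing notes. For the aligner, counter, reference set, molecular identifiers and filters, the sources used here give nothing. The deposited values are RPM over 108 listed microRNAs. Diet was taken from sample titles. In the vegetable fat tables the header numbers differ from the titles, while the diet is the same. Each sample's values lay within 0.01 of whole multiples of 1 read, which gave implied read totals. A floor of 3 reads is 0.749 to 2.83 RPM, far below every member. Too few low values were listed to check the implied reads as counts, so no count model was run. The RPM values were tested by limma 3.58.1 (R 4.3.3, trended and robust variance) on log2(RPM + 1), tried on simulated data. The threshold was 0.05 after Benjamini-Hochberg adjustment over 104 microRNAs. The filter left out 4. Ratios and correlations were tested exactly with Python 3.11.15, over all assignments or pairings. Named are the members, listed relatives, the 2 most similar non-members of each, and fixed blood cell names. Members and lists were chosen with earlier results of these data known. Relations of ratios to read total, correlations with blood cell microRNAs, removal of the read total trend, and leaving out the libraries with most and fewest reads were chosen once the data had been seen. No genome positions or sequences are given.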

Additional observations from a re-analysis of the deposited data

Results flagged for a closer look

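Of 32 groups of 4 samples examined (5 levels, the summed share and 10 ratios in each diet), 2 held a sample far from the other 3, and chance gives about 1 in 20, or 1.6. MiR-18 stood at 1199 RPM in dairy sample 3, against 711 to 765 RPM in the other dairy samples. The ratio of miR-92a to miR-20 was 2.64 in dairy sample 1, against 1.52 to 1.64 in the other dairy samples.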

How the results depend on the processing

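With 4 samples a diet, intervals of the members reached up to 1.51 on the log2 scale. Counting error was small at their levels, but the ratio of miR-20 to miR-17 had an r of 0.92 with log2 read total. No paired analysis was possible because the diets share no replicate number. The counts of members and of microRNAs called between the diets were 0 in all 18 alternatives, as was that of ratios in all 9. Read total as a covariate gave miR-19b 0.73 with an unadjusted p of 0.0451 (limma adjusted p = 0.930). In that fit 4 of the 104 microRNAs had an unadjusted p under 0.05, with miR-19b the 1 member among them. Of 90 refitted member estimates 5 changed sign. Upper quartile scaling, which moved the median of all microRNAs from 0.07 to −0.19, gave −0.12 for miR-92a. With the shallowest and the deepest library left out, miR-17, miR-18 and miR-20 gave −0.038, −0.031 and −0.060. With 1 sample left out, miR-92a ran from −0.049 to 0.28. Diet differences of log2 ratios then ran from −0.41 to 0.19 for miR-92a over miR-20, −0.33 to 0.093 for miR-92a over miR-18, −0.20 to 0.22 for miR-20 over miR-17, −0.094 to 0.10 for miR-20 over miR-18 and −0.14 to 0.11 for miR-17 over miR-18.

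Slopes on read total called for a member numbered 1 with upper quartile scaling and 1 with the trimmed mean, and 0 to 1 with 1 sample left out. Upper quartile scaling gave slopes of 0.018 for miR-17 and 0.076 for miR-92a, and the trimmed mean 0.20 and 0.25. With 1 sample left out, slopes ran from −0.34 to 0.033 for miR-17 and −0.0041 to 0.44 for miR-18.

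Correlated pairs past the threshold numbered 2, against 6 with the trimmed mean. With 1 sample left out they numbered 0 (without vegetable sample 7) to 4 (without vegetable sample 8). With the read total trend removed, 6 pairs had an adjusted p under 0.05 (exact permutation of residuals, with no allowance for the fitted trend). That count is no test, since the adjustment was chosen after the data were seen. No share over all pairs is given for these settings. The trimmed mean gave an r of 0.41 for miR-92a and miR-19b. With 1 sample left out, r with miR-92a ran from −0.23 to 0.13 for miR-19b, −0.17 to 0.56 for miR-20 and −0.072 to 0.46 for miR-18. Ratios related to read total numbered 2, or 2 to 3 with 1 sample left out, where r stayed from 0.91 to 0.96 for miR-20 over miR-17. Without the shallowest and the deepest library 1 passed (miR-20 over miR-17), and miR-92a over miR-17 and miR-20 over miR-19b had r of −0.10 and −0.20. With 1 sample left out these 2 ran from −0.40 to 0.50 and −0.22 to 0.76, and miR-18 over miR-19b from −0.75 to 0.44. Relations to blood cell microRNAs numbered 1, and 0 to 6 with 1 sample left out (6 without vegetable sample 8). These counts take either sign of r, and no share over all pairs is given for them. The cause of these changes was not tested.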
